A study of Homo sapiens with 12 samples.

Results

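NF-kB is a family of 5 transcription factor subunits that act as pairs, and the genes measured here are those subunits (NFKB1, NFKB2, REL, RELA and RELB), 3 inhibitors of the pathway (NFKBIA, NFKBIE and TNFAIP3) and 2 chemokine targets (CXCL2 and CXCL8). The 10 genes were taken by name and not by a cut on their values, though with earlier results of these data known. Every probe set that the platform annotation gives to 1 of them alone was kept. This gave 15 probe sets, and the 10 genes are among 11940 with at least 1 probe set of their own. In resting cells the pairs are held in the cytoplasm by IkB proteins; receptors such as those for tumour necrosis factor activate the IKK kinase complex, which marks the IkB proteins for destruction and lets the pairs enter the nucleus. Among the genes they then switch on are several of their own inhibitors, and many chemokines. Because much of this control acts on protein stability and location, mRNA levels report only part of the pathway's state.

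The samples are 12 Affymetrix arrays, labelled in 1 colour with biotin, of RNA from HEL cells, an acute myeloid leukaemia line of erythroid character that carries the activating JAK2V617F mutation, so every group shares that mutation. The 4 groups were Jak2-10 and Jak2-9, which received independent lentiviral short hairpin RNAs against JAK2, Luc, which received a hairpin against luciferase, and GFP, which the labels call both a vector control and a hairpin control. Each group had 3 arrays, and all constructs were in a pLKO vector with puromycin selection. Every group is a population of 1 cell line, and the labels number the replicates without calling them separate cultures, so the p-values measure only the spread from array to array, part or all of which may be technical. Values are log2 of the deposited intensity of a probe set, a group of probes that read 1 stretch of transcript; they allow comparison between arrays for 1 probe set, not between probe sets. Below, knockdown means the mean of Jak2-10 and Jak2-9, control means the mean of Luc and GFP, and a probe set is said to have risen or fallen only where the limma adjusted p over all 22406 tested probe sets was under 0.05. Every comparison of a hairpin with control uses the same 6 control arrays.

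Replicate 1 of Jak2-9 stood apart from the other arrays. It had 592 probe sets more than 2-fold from the mean of its group's other arrays, against 0 to 36 such probe sets on each of the other 11 arrays, and results that rest on it are given with and without it. JAK2 itself, read by the probe set 205842_s_at, had log2 intensities of 10.06, 10.04 and 9.78 in Jak2-10, 9.37, 9.89 and 10.08 in Jak2-9, 10.47, 10.63 and 10.56 in Luc, and 10.47, 10.40 and 10.68 in GFP. The groups did not overlap: the highest knockdown value was below the lowest control value. The knockdown level was 63.1% of control (log2 fold change -0.67 ± 0.11 SE, limma adjusted p = 0.00260). Jak2-9 alone was at 59.3% of control (log2 fold change -0.75, limma adjusted p = 0.00569), or at -0.55 on the log2 scale without its replicate 1 (limma adjusted p = 0.00927), and Jak2-10 alone at 67.0% missed the threshold (limma adjusted p = 0.0556), though it passed without replicate 1 of Jak2-9 (limma adjusted p = 0.00201) or without replicate 3 of Jak2-9 (0.0269), both of which enter the shared estimate of the spread. The second JAK2 probe set, 205841_at, read 8.19, 8.22 and 8.06 in Jak2-10, 7.11, 8.35 and 8.40 in Jak2-9, 8.68, 8.85 and 8.81 in Luc, and 8.73, 8.75 and 8.90 in GFP, again with no overlap between knockdown and control. Its log2 fold change was -0.73 ± 0.17 SE in knockdown (limma adjusted p = 0.0320), a call that held without any 1 array of Jak2-9 and was lost without any 1 array of the other 3 groups (0.0615 to 0.0920). In Jak2-9 it was -0.84 (limma adjusted p = 0.0412), a call lost without any 1 array of the other 3 groups (0.0598 to 0.0922), and without replicate 1 of Jak2-9 it was -0.42 (0.0185). In Jak2-10 it was -0.63 and missed the threshold (0.329), but passed without replicate 1 of Jak2-9 (0.000192). The median probe set of the erythroid marker list lay at percentile 74.7 of brightness, with the fetal globin gene HBG2 at percentile 100 and 1 of the EPOR probe sets, 216999_at, at 0.835. The median lay at percentile 48.7 for megakaryocyte markers and at 19.0 for the monocyte and granulocyte list. Of the megakaryocyte probe sets, ITGA2B 206493_at reached 91.9, while ITGA2B 216966_at lay at 19.1. So the megakaryocyte list as a whole was of middle brightness, with some bright probe sets. These percentiles are only a rough guide, as values do not compare between probe sets.

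The DNA before the start sites of the genes is shown here because NF-kB targets and several NF-kB genes carry kB sites there. RefSeq promoter windows (GRCh38.p14, 250 bases before to 50 after a start) were held for 8 of the 10 genes in 12 windows; NFKBIE and RELB had none in that table. The letters GGNNNTTCC, searched on both strands, matched in windows of 7 of the 8 genes, all except RELA, and in 8 of the 12 windows. The same letters matched in 20.1% of all 35116 windows. A second kB pattern, of 10 letters, was also searched on both strands. It matched in windows of all 8 genes, RELA included, and in 12 of the 12 windows. That pattern was common, as it matched in 58.7% of all windows. The STAT letters TTCNNNGAA matched only in RELA among the 8 genes, from base -106 to -98 of the start, and in 7.66% of all windows. A match is a description of the letters, not evidence of a bound factor.

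The first pair of stretches below compares the bases -150 to -1 of both chemokine genes, which lie on chromosome 4; CXCL2 is on the minus strand (chr4:74099196-74099345) and CXCL8 on the plus strand (chr4:73740419-73740568). Capitals mark GGNNNTTCC matches on either strand. CXCL2 holds matches at -77 to -69 and at -53 to -45, and CXCL8 holds 1 at -91 to -83.
CXCL2: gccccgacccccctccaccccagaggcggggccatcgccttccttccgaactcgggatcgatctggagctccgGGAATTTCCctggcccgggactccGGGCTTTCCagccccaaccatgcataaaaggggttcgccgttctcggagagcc
CXCL8: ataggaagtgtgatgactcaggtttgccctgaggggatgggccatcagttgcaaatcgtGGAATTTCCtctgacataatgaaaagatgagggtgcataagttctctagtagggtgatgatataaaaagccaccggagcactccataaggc

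Shorter stretches show the GGNNNTTCC matches nearest the start in 4 genes that encode subunits or inhibitors of the pathway, with capitals as above. They lie at chr14:35404812-35404840 on the minus strand for NFKBIA, at chr2:60881518-60881546 on the plus strand for REL, at chr4:102501301-102501329 on the plus strand for NFKB1 and at chr6:137867182-137867222 on the plus strand for TNFAIP3. NFKB1 and CXCL8 share the 9 letters GGAATTTCC with the upstream match of CXCL2, and NFKBIA and REL share GGAAATTCC. Both capitalised runs of TNFAIP3 match on the strand opposite the gene. NFKB2 also holds GGNNNTTCC matches, in 2 of its windows, and is not shown.
NFKBIA: tgactggcttGGAAATTCCccgagcctga
REL: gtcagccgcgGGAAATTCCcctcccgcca
NFKB1: gacgtcagtgGGAATTTCCagccaggaag
TNFAIP3: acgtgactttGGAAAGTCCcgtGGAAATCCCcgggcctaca

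After JAK2 knockdown, NFKBIE rose and CXCL2 fell, and none of the other 8 genes passed the test. Counted over the 15 probe sets, 1 rose, where 0.629% of all probe sets rose, and 1 fell, where 2.51% of all probe sets fell, 3.14% in either direction. Over all probe sets 141 rose and 563 fell, or 261 and 526 when each array was centred on its median. The median log2 fold change of the 15 probe sets was 0.06, beside 0.03 for all probe sets, with 9 above 0 and 6 below, and 3 of the 15 had an unadjusted p under 0.05, as did 16% of all probe sets. In none of the 15 did the 6 knockdown arrays lie wholly above or below the 6 control arrays, where 1.03% of all probe sets lay wholly above and 2.13% wholly below. In bulk RNA, a change in the share of cells of 1 type and a change in RNA per cell cannot be told apart, which applies to every value here.

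**Figure D1:**
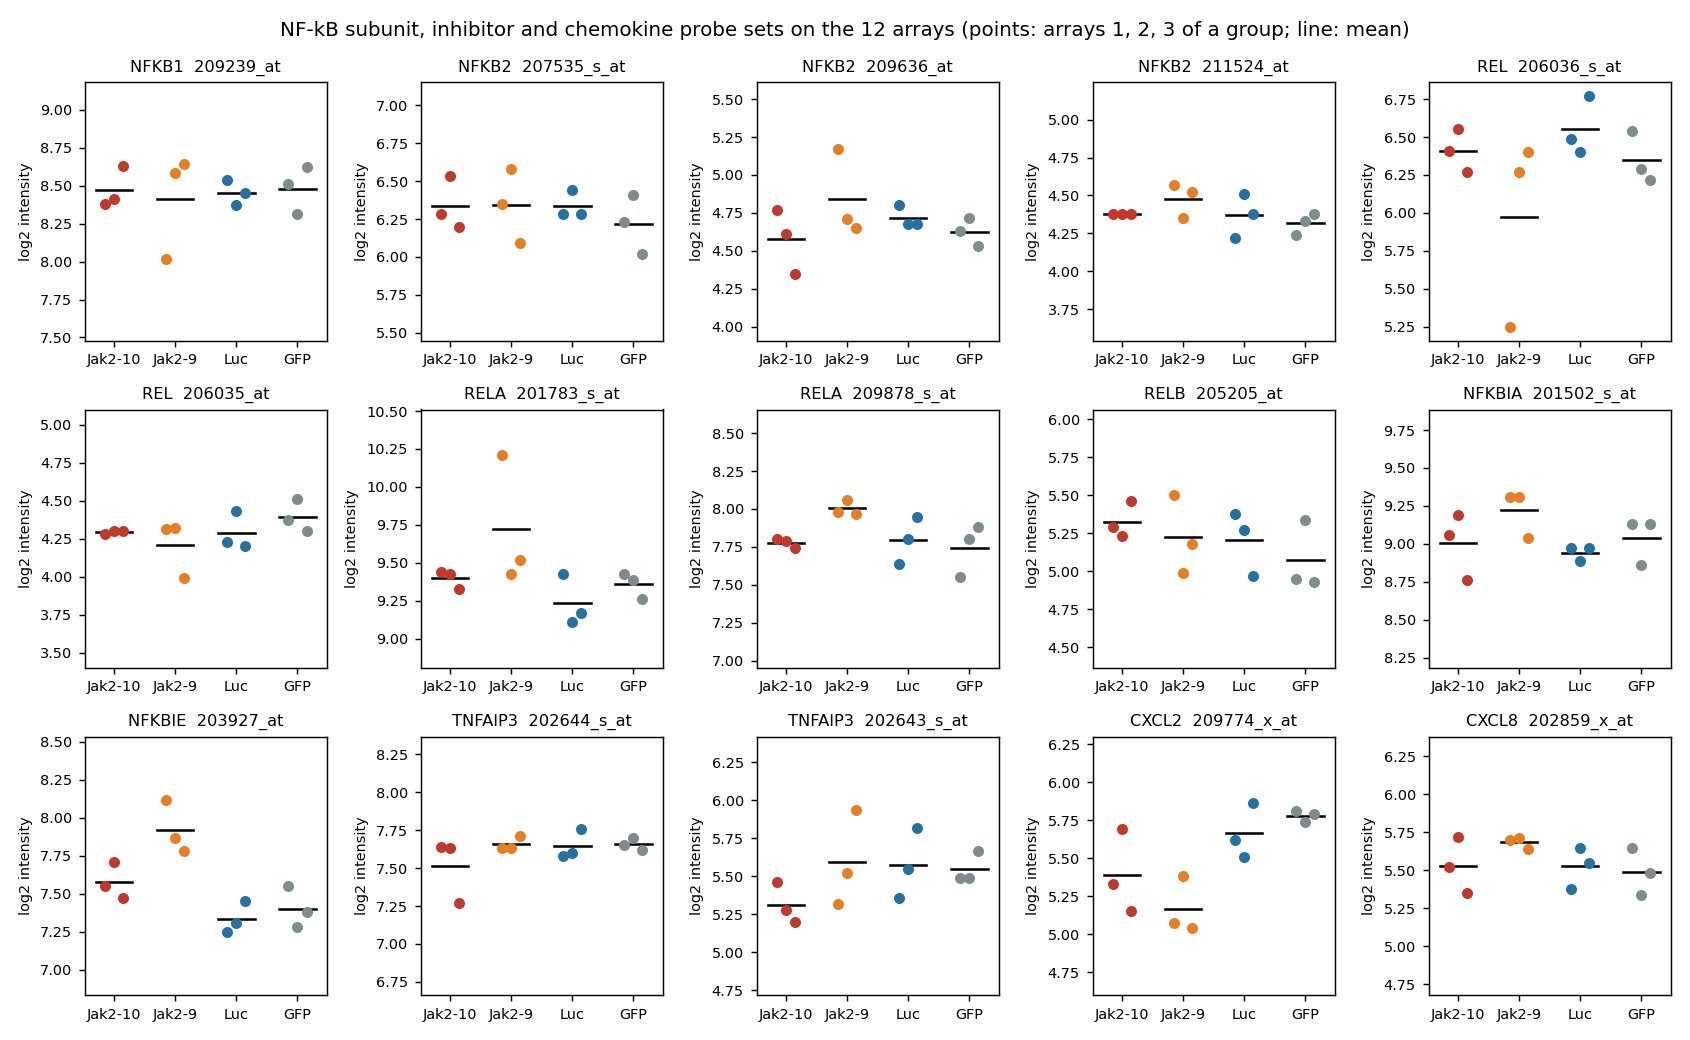
Log2 intensity of the 15 probe sets (vertical axis) on the 12 arrays, with Jak2-10, Jak2-9, Luc and GFP from left to right, a point per array and a line at each group mean; all panels span the same number of log2 units. For NFKBIE the 3 Jak2-9 arrays (7.78 to 8.12) lay above all control arrays (7.25 to 7.55), for CXCL2 they (5.04 to 5.38) lay below them (5.51 to 5.86), and for REL and RELA a single Jak2-9 array lay far from its group.

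Taking the subunits first, NFKB1 encodes the p105 precursor of p50, a subunit without an activation domain. Its probe set 209239_at gave log2 intensities of 8.38, 8.41 and 8.63 in Jak2-10, 8.02, 8.58 and 8.64 in Jak2-9, 8.54, 8.37 and 8.45 in Luc, and 8.51, 8.31 and 8.62 in GFP. The groups overlapped, and the lowest of the 12 values was replicate 1 of Jak2-9. The knockdown minus control difference was -0.02 ± 0.11 SE (95% interval -0.25 to 0.21, limma adjusted p = 0.942).

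NFKB2, which encodes the p100 precursor of p52 in the non-canonical branch, had 3 probe sets. The brightest, 207535_s_at, read 6.28, 6.53 and 6.20 in Jak2-10, 6.35, 6.58 and 6.09 in Jak2-9, 6.28, 6.44 and 6.28 in Luc, and 6.23, 6.41 and 6.02 in GFP. All 4 groups overlapped. Its knockdown minus control log2 difference was 0.06 ± 0.10 SE (limma adjusted p = 0.795), and those of the dimmer 209636_at and 211524_at were 0.04 and 0.09 (limma adjusted p = 0.888 and 0.585).

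REL encodes c-Rel, an activating subunit prominent in blood cells. Its brighter probe set 206036_s_at read 6.41, 6.55 and 6.27 in Jak2-10, 5.25, 6.27 and 6.40 in Jak2-9, 6.49, 6.40 and 6.77 in Luc, and 6.54, 6.29 and 6.22 in GFP. Replicate 1 of Jak2-9 was 1.08 log2 units below the mean of the other Jak2-9 arrays, and the remaining 11 values ran together. For Jak2-9 against control the log2 fold change was -0.48 ± 0.20 SE (limma adjusted p = 0.176). Without that replicate it was -0.12 (limma adjusted p = 0.748), and without replicate 3 of Jak2-9 it was -0.69 with a limma adjusted p of 0.0497. The dim probe set 206035_at, at brightness percentile 8.75, ranged over all 12 arrays between 3.99 and 4.51.

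RELA encodes p65, the main activating subunit of the canonical pathway, and its probe sets were among the brighter of the 15. The probe set 201783_s_at read 9.44, 9.43 and 9.33 in Jak2-10, 10.21, 9.43 and 9.52 in Jak2-9, 9.43, 9.11 and 9.17 in Luc, and 9.43, 9.39 and 9.26 in GFP. Replicate 1 of Jak2-9 was the highest of the 12, 0.74 log2 units above the mean of the other Jak2-9 arrays, and the groups overlapped. The Jak2-9 minus control value of 0.42 ± 0.14 SE missed the threshold (limma adjusted p = 0.113), was 0.17 without that replicate (limma adjusted p = 0.510), and was 0.56 without replicate 2 of Jak2-9 (limma adjusted p = 0.0459).

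The second RELA probe set, 209878_s_at, read 7.80, 7.79 and 7.74 in Jak2-10, 7.98, 8.06 and 7.97 in Jak2-9, 7.64, 7.80 and 7.95 in Luc, and 7.55, 7.80 and 7.88 in GFP. Here all 3 Jak2-9 arrays lay close together and just above every other array. The difference from control was 0.23 ± 0.09 SE for Jak2-9 (limma adjusted p = 0.163) and 0.01 ± 0.09 SE for Jak2-10 (95% interval -0.19 to 0.21). With the mean of both RELA probe sets as the value of the gene, Jak2-9 was higher by 0.33 with a limma adjusted p of 0.0465, where 4.25% of all genes were called. So the call for RELA depends on how the probe sets are joined. That mean takes in the high replicate 1 of Jak2-9 in 201783_s_at and was not fitted without it. Without that replicate, 201783_s_at and 209878_s_at stood at 0.17 and 0.25 in Jak2-9 (limma adjusted p = 0.510 and 0.321).

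RELB, the activating partner of p52, was read by 205205_at at 5.29, 5.23 and 5.46 in Jak2-10, 5.50, 4.99 and 5.18 in Jak2-9, 5.38, 5.27 and 4.97 in Luc, and 4.95, 5.34 and 4.93 in GFP. The groups overlapped, and the knockdown minus control log2 difference was 0.14 ± 0.11 SE (95% interval -0.10 to 0.37, limma adjusted p = 0.575).

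Among the inhibitors, NFKBIA encodes IkB-alpha, the inhibitor best known for its rapid resynthesis after NF-kB activation. Its probe set 201502_s_at read 9.06, 9.19 and 8.76 in Jak2-10, 9.31, 9.31 and 9.04 in Jak2-9, 8.97, 8.89 and 8.97 in Luc, and 9.13, 8.86 and 9.13 in GFP. The Jak2-9 arrays were mostly high but overlapped the controls. The difference from control was 0.22 ± 0.11 SE for Jak2-9 (95% interval -0.01 to 0.46, limma adjusted p = 0.241) and 0.01 ± 0.11 SE for Jak2-10 (limma adjusted p = 1).

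NFKBIE encodes IkB-epsilon, a further IkB protein that binds RELA and c-Rel pairs, and it was the gene that rose. It lies on chromosome 6 at 44258166 to 44265551 in RefSeq's GRCh38.p14; the deposited table names no build. The probe set 203927_at read 7.55, 7.71 and 7.47 in Jak2-10, 8.12, 7.87 and 7.78 in Jak2-9, 7.25, 7.31 and 7.45 in Luc, and 7.55, 7.28 and 7.38 in GFP. The 3 Jak2-9 arrays were above all control arrays and above all Jak2-10 arrays, and the Jak2-10 arrays overlapped the highest control array. The mean was 7.75 ± 0.23 in knockdown and 7.37 ± 0.11 in control (SD, n = 6 arrays each), a log2 fold change of 0.38 ± 0.08 SE, or 1.30-fold (limma adjusted p = 0.0168).

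By hairpin, NFKBIE was 1.47-fold control in Jak2-9 (log2 fold change 0.56 ± 0.10 SE, limma adjusted p = 0.00563) and 1.15-fold in Jak2-10 (0.21 ± 0.10 SE, 95% interval -0.01 to 0.42, limma adjusted p = 0.732). Jak2-10 minus Jak2-9 was -0.35 ± 0.12 SE, which missed the threshold over all probe sets (unadjusted p = 0.00894, limma adjusted p = 0.572). The Jak2-9 call held with each of the 12 arrays left out in turn, and without replicate 1 of Jak2-9 the value was 0.46 (limma adjusted p = 0.0195). The knockdown call was lost without replicate 2 of Jak2-10 (limma adjusted p = 0.0536), replicate 1 of Luc (0.0535), replicate 2 of Luc (0.0509) or replicate 2 of GFP (0.0571), and the log2 fold change then lay between 0.35 and 0.38.

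TNFAIP3 encodes A20, a ubiquitin-editing enzyme that shuts off signalling to IKK. Its brighter probe set 202644_s_at read 7.64, 7.63 and 7.27 in Jak2-10, 7.63, 7.63 and 7.71 in Jak2-9, 7.58, 7.60 and 7.76 in Luc, and 7.65, 7.70 and 7.62 in GFP. Apart from replicate 3 of Jak2-10, the 12 arrays ran within a narrow band. The knockdown minus control log2 difference was -0.07 ± 0.08 SE (limma adjusted p = 0.704). The dimmer 202643_s_at read 5.46, 5.28 and 5.20 in Jak2-10, 5.32, 5.52 and 5.94 in Jak2-9, 5.36, 5.55 and 5.82 in Luc, and 5.49, 5.49 and 5.67 in GFP. Jak2-10 was on the low side there and Jak2-9 level with the controls, at differences from control of -0.25 ± 0.13 SE and 0.03 ± 0.13 SE (limma adjusted p = 0.800 and 0.924).

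Of the chemokine targets, CXCL2 encodes MIP-2-alpha, a neutrophil attractant, and lies on chromosome 4 at 74097040 to 74099195 in the same build. Its probe set 209774_x_at read 5.33, 5.69 and 5.15 in Jak2-10, 5.07, 5.38 and 5.04 in Jak2-9, 5.62, 5.51 and 5.86 in Luc, and 5.81, 5.74 and 5.79 in GFP. All Jak2-9 arrays were below all control arrays; replicate 2 of Jak2-10 lay among them. The mean was 5.28 ± 0.25 in knockdown and 5.72 ± 0.13 in control (SD, n = 6 arrays each), which puts knockdown at 73.4% of the control level (difference of log2 values -0.45 ± 0.10 SE, 95% interval -0.66 to -0.23, limma adjusted p = 0.0234).

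By hairpin, CXCL2 reached 67.8% of the control level in Jak2-9 (difference of log2 values -0.56 ± 0.12 SE, limma adjusted p = 0.0198) and 79.5% in Jak2-10 (-0.33 ± 0.12 SE, unadjusted p = 0.0173, limma adjusted p = 0.444). Jak2-10 minus Jak2-9 was 0.23 ± 0.14 SE (95% interval -0.07 to 0.53, limma adjusted p = 0.596). The Jak2-9 call was lost without replicate 1 of Jak2-9, at -0.51 (limma adjusted p = 0.0660). The knockdown call was lost without replicate 1 of Jak2-10 (limma adjusted p = 0.0715), replicate 3 of Jak2-10 (0.0636), replicate 1 of Luc (0.0503), replicate 3 of Luc (0.0713), or replicate 1 (0.0692), replicate 2 (0.0524) or replicate 3 (0.0566) of GFP, with the value still between -0.46 and -0.39.

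The suffix of the CXCL2 probe set marks probes that may also read related transcripts, so the values of its close relatives are given, chosen after all values were seen. CXCL1 (204470_at) was dim, at brightness percentile 7.93, and its knockdown minus control difference was -0.06 ± 0.07 SE (limma adjusted p = 0.740). CXCL3 (207850_at) differed by 0.12 ± 0.08 SE in the opposite direction (limma adjusted p = 0.496). For CXCL3, Luc lay wholly below GFP (log2 difference -0.32, which did not pass the test), as it did in 5.44% of all probe sets. Neither relative passed the test, and what the CXCL2 probes read beyond CXCL2 was not tested.

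CXCL8 encodes interleukin 8, also a neutrophil attractant. Its probe set 202859_x_at read 5.52, 5.72 and 5.35 in Jak2-10, 5.70, 5.71 and 5.64 in Jak2-9, 5.38, 5.65 and 5.55 in Luc, and 5.65, 5.34 and 5.48 in GFP. The groups overlapped. The knockdown minus control log2 difference was 0.10 ± 0.08 SE, with a 95% interval of -0.08 to 0.27 (limma adjusted p = 0.595). This probe set carries the same suffix as that of CXCL2, and what it reads beyond CXCL8 was not tested. Both chemokine genes carry the match GGAATTTCC shown above.

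**Figure D2:**
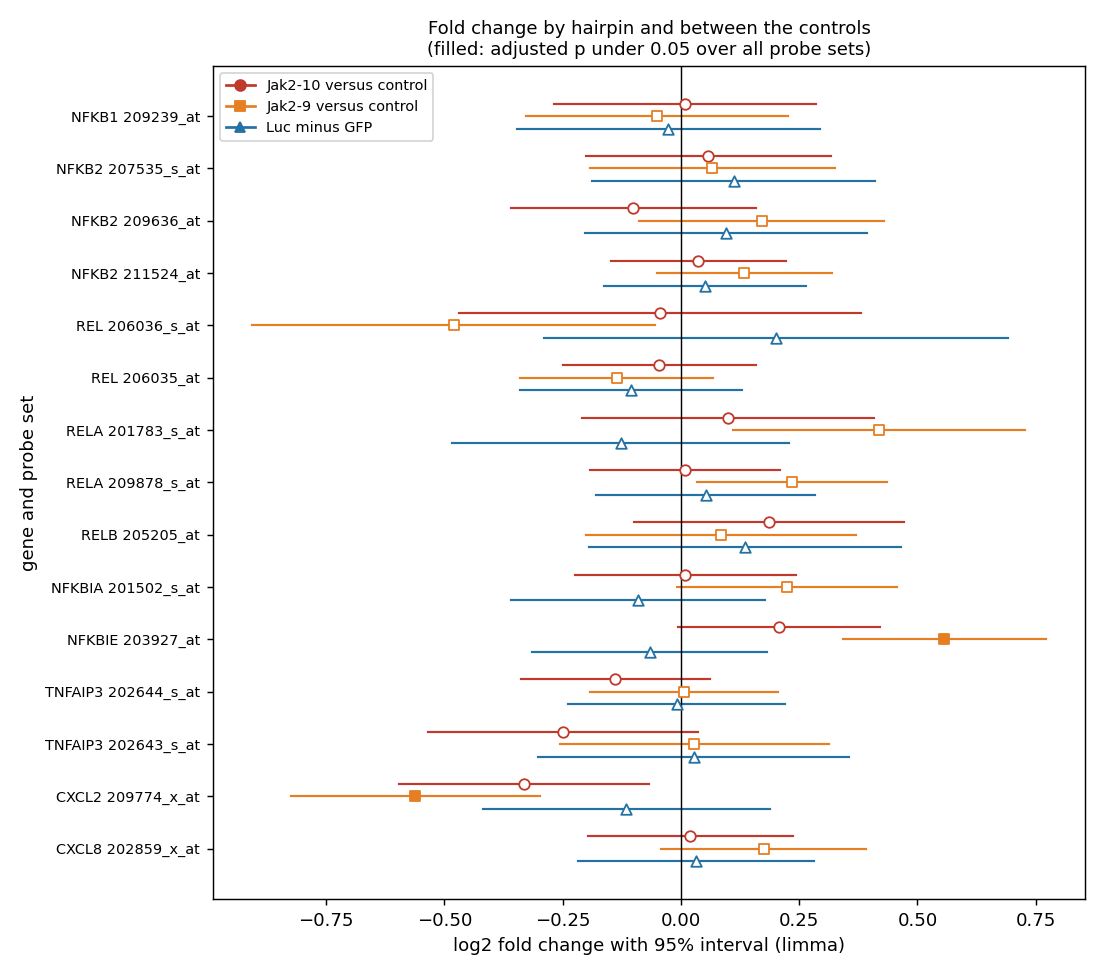
Log2 fold change with its 95% interval (horizontal axis) for each of the 15 probe sets, for Jak2-10 against control, Jak2-9 against control, and Luc minus GFP, with filled marks where the limma adjusted p was under 0.05. The only filled marks are the Jak2-9 values of NFKBIE (0.56) and CXCL2 (-0.56), and the Luc minus GFP intervals all include 0.

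Taken by hairpin, 2 of the 15 probe sets passed in Jak2-9 and 0 in Jak2-10. In Jak2-9 against control, 1 rose and 1 fell, where 1.64% of all probe sets rose and 2.62% fell (4.27% in either direction), and 5 of the 15 had an unadjusted p under 0.05, as did 22.2% of all probe sets. Over all probe sets these were 368 and 588, or 856 and 580 when each array was centred on its median, 88 and 402 without replicate 1 of Jak2-9, and 1061 and 959 without its replicate 3. In that contrast 2 of the 15 probe sets (those of NFKBIE and RELA 209878_s_at) lay wholly above the controls and 1 (CXCL2) wholly below, where 7.48% and 4.71% of all probe sets did. In Jak2-10 against control, limma called 0 of 15, where 0.0848% of all probe sets rose and 1.29% fell (1.37% in either direction), and 1 of the 15, CXCL2, had an unadjusted p under 0.05, as did 7.1% of all probe sets. No Jak2-10 probe set of the 15 lay wholly above or below the controls, where 2.58% of all probe sets lay above and 3.31% below. For Jak2-10 minus Jak2-9, limma called 0 of 15 and 0% of all probe sets, 1 of the 15, NFKBIE, had an unadjusted p under 0.05 (8.56% of all probe sets), and the median difference was -0.14, beside -0.02 for all probe sets. For 2 of the 15, NFKBIE and RELA 209878_s_at, Jak2-10 lay wholly below Jak2-9 and for 0 wholly above, where 7.21% and 3.69% of all probe sets did. In Luc minus GFP, limma called 0 of 15 and 0% of all probe sets, and 0 of the 15 had an unadjusted p under 0.05, where 2.5% of all probe sets did. The groups overlapped in all 15, where Luc lay wholly above GFP in 4.28% of all probe sets and wholly below in 5.44%. That a gene passed in Jak2-9 and missed in Jak2-10 is not a test of a difference between the hairpins, and none of the 10 genes passed the test of Jak2-10 minus Jak2-9.

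The sum of intensities over the megakaryocyte marker list (25 probe sets of 11 of its 12 genes, none of them at 0) ran highest in Jak2-9 and overlapped with Luc. It was 5097 to 5565 in Jak2-10, 5660 to 6863 in Jak2-9, 5198 to 5837 in Luc and 5113 to 5195 in GFP. The monocyte and granulocyte list (17 probe sets of 11 of 12 genes, none at 0) summed to 452 to 457 in Jak2-10, 451 to 526 in Jak2-9, 441 to 455 in Luc and 438 to 459 in GFP, and the fibroblast and endothelial list (23 probe sets of 10 of 10 genes, none at 0) to 4273 to 4524 in Jak2-10, 4166 to 4503 in Jak2-9, 4035 to 4145 in Luc and 3915 to 4426 in GFP. The erythroid list (15 probe sets of 9 of 12 genes, none at 0) summed to 91240 to 98234 in Jak2-10, 96048 to 99672 in Jak2-9, 93712 to 96926 in Luc and 87346 to 98376 in GFP. The B and T lymphocyte list held 11 probe sets of 9 of 10 genes. Its sums were 957 to 963 in Jak2-10, 964 to 1119 in Jak2-9, 861 to 1008 in Luc and 925 to 1017 in GFP. By probe set, limma called none of these markers in knockdown, where 3.14% of all probe sets were called. An unadjusted limma p under 0.05 was held by 7 megakaryocyte, 2 monocyte and granulocyte, 3 fibroblast and endothelial, 4 erythroid and 0 lymphocyte probe sets, and by 16% of all probe sets. In Jak2-9 limma called 4 marker probe sets, all higher, where 1.64% of all probe sets rose. They were those of the embryonic globin HBZ (1.54-fold control, limma adjusted p = 0.0407), the megakaryocyte markers CD9 (1.34-fold, 0.0178) and SELP (1.35-fold, 0.0161), and the endothelial cadherin CDH5 (1.22-fold, 0.0493). That is 1 of 15 erythroid, 2 of 25 megakaryocyte and 1 of 23 fibroblast and endothelial probe sets. Without replicate 1 of Jak2-9 all 4 calls were lost (limma adjusted p = 0.0970, 0.0524, 0.0611 and 0.130 in the same order), and the log2 value of HBZ was 0.34, against 0.62 with it. HBZ was called only without replicate 2 or 3 of Jak2-9, and CDH5 only without replicate 3 of Jak2-9 or replicate 2 of GFP, when 1 array was left out. The part of these marker levels in the NFKBIE and CXCL2 results was not tested.

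**Figure D3:**
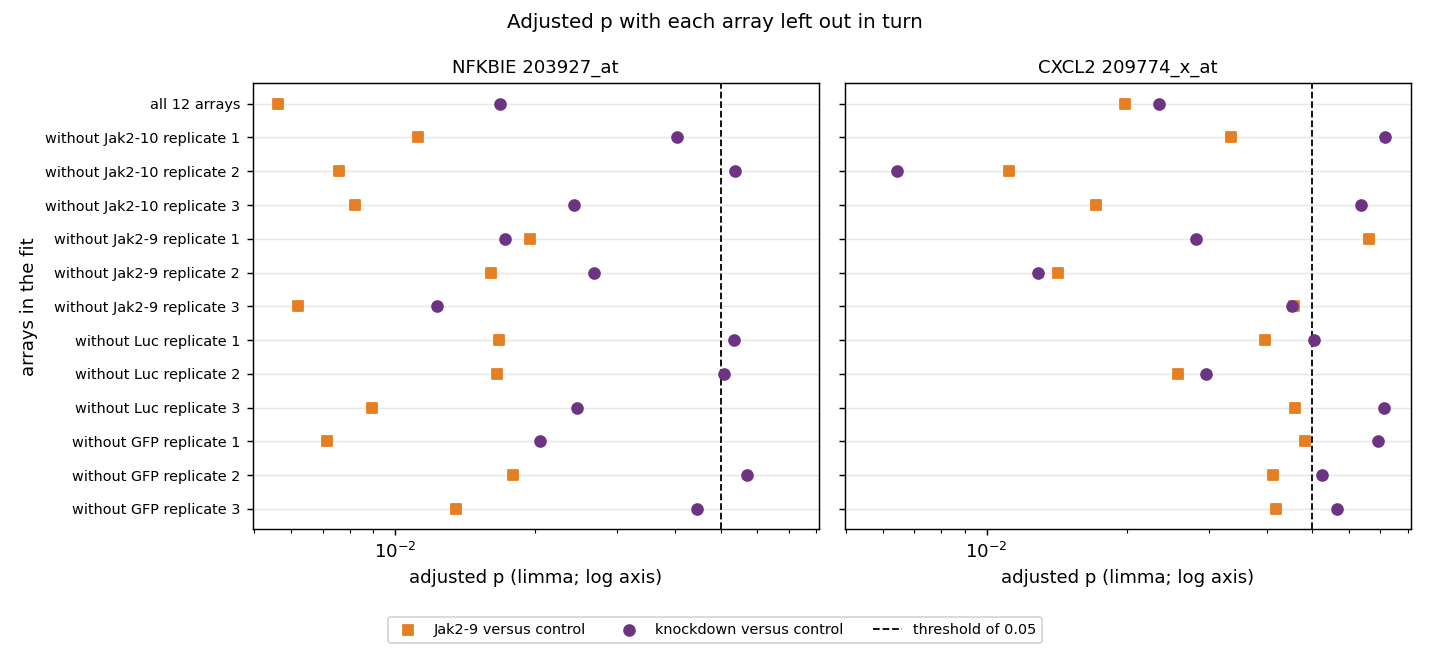
Limma adjusted p (horizontal log axis) of NFKBIE and CXCL2 with all 12 arrays and with each array left out in turn (rows), for Jak2-9 against control and knockdown against control, with a dashed line at the threshold of 0.05. The Jak2-9 squares of NFKBIE stay left of the line in every row, and that of CXCL2 crosses it only without replicate 1 of Jak2-9 (0.0660), while the knockdown circles cross in 4 rows for NFKBIE and 7 rows for CXCL2.

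Across the wider pathway the called share was small. Of 94 further pathway genes in 5 lists, 83 had probe sets of their own, 164 in all, and in knockdown against control 1 of these probe sets rose and 1 fell, where 0.629% of all probe sets rose and 2.51% fell. Of the 164, 26 had an unadjusted p under 0.05, as did 16% of all probe sets. Their median log2 fold change was 0.03, as it was for all probe sets to that precision. In Jak2-9 against control 1 rose and 2 fell, where 1.64% of all probe sets rose and 2.62% fell, and 35 had an unadjusted p under 0.05, as did 22.2% of all probe sets. The balance turned with the setting: 5 rose and 1 fell under median centring, and 5 rose and 3 fell with array weights. Over all probe sets 856 rose and 580 fell under median centring, and 364 and 660 with array weights. In Jak2-10 limma called 0, where 1.37% of all probe sets were called, with 8 at an unadjusted p under 0.05, as were 7.1% of all probe sets. These counts moved with single arrays, as did the called share of all probe sets. In knockdown that share was 3.14% with all arrays and 2.18% to 4.20% with 1 array left out, the highest without replicate 3 of Jak2-9. The 2 knockdown calls became 0 without replicate 1 or 2 of Jak2-10, replicate 1 or 3 of Luc, or replicate 1 or 2 of GFP, 1 without replicate 3 of Jak2-10 or replicate 2 of Luc, 3 without replicate 1 of Jak2-9 and 5 without replicate 3 of Jak2-9. The 3 Jak2-9 calls became 19 without replicate 3 of Jak2-9, 7 without its replicate 2 and 1 without its replicate 1; 1 without any single GFP array or without replicate 1 or 3 of Luc; and 2 without replicate 1 or 2 of Jak2-10 or replicate 2 of Luc. They became 4 without replicate 3 of Jak2-10. Over all probe sets the share called in Jak2-9 was 9.02% without its replicate 3, 6.46% without its replicate 2 and 2.19% without its replicate 1. Without any 1 array of the other 3 groups it was 2.52% to 3.95%, against 4.27% with all arrays. The 0 calls of Jak2-10 became 2 without replicate 1 of Jak2-9, with array weights, or with only the arrays compared in the fit. Over all probe sets those settings called 2.19%, 2.64% and 1.98% in that order, against 1.37% in the main fit.

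Among signal receptors and adaptors (17 of 20 genes measured, 28 probe sets), 1 probe set rose and 0 fell in knockdown against control, beside 0.629% and 2.51% of all probe sets. It was that of CD40, a receptor of the tumour necrosis factor family that signals to both NF-kB branches. Its probe set 35150_at read 6.22, 6.39 and 6.18 in Jak2-10, 6.45, 6.46 and 6.41 in Jak2-9, 5.94, 6.06 and 5.93 in Luc, and 6.05, 6.01 and 6.28 in GFP. The Jak2-9 arrays lay above all others. The log2 fold change was 0.31 ± 0.07 SE in knockdown (limma adjusted p = 0.0274) and 0.40 ± 0.09 SE in Jak2-9 (limma adjusted p = 0.0197). The knockdown call was lost without replicate 1 (limma adjusted p = 0.0551) or 2 (0.0780) of Jak2-10, replicate 2 of Jak2-9 (0.0517), replicate 1 (0.0733) or 3 (0.0773) of Luc, or replicate 1 (0.0895) or 2 (0.0867) of GFP. The Jak2-9 call was lost without replicate 1 (0.0519) or 2 (0.0510) of GFP. The other 3 CD40 probe sets had knockdown minus control values between -0.10 and 0.14 and did not pass.

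BIRC2, a ubiquitin ligase of receptor complexes also known as cIAP1, was the other called gene of that list, in Jak2-9 against control (202076_at, log2 fold change -0.35 ± 0.09 SE, limma adjusted p = 0.0416). The arrays read 10.28, 10.31 and 10.18 in Jak2-10, 9.81, 10.08 and 10.20 in Jak2-9, 10.46, 10.38 and 10.44 in Luc, and 10.30, 10.31 and 10.41 in GFP. Jak2-9 lay below all control arrays. Without its replicate 1 the value was -0.24 (limma adjusted p = 0.183), and the call held only when replicate 3 of Jak2-10 or replicate 3 of Jak2-9 was the array left out; for the other 9 arrays the limma adjusted p was 0.0521 to 0.0823.

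In the list of the IKK complex, ubiquitin ligases and related kinases (13 of 15 genes, 25 probe sets), 0 rose and 1 fell, a share near the 2.51% of all probe sets that fell. It was that of IKBKB, the catalytic subunit IKK-beta. Its probe set 209341_s_at read 8.10, 8.08 and 7.98 in Jak2-10, 7.60, 8.39 and 8.23 in Jak2-9, 8.65, 8.68 and 8.62 in Luc, and 8.59, 8.38 and 8.28 in GFP. Jak2-10 lay below all controls, Jak2-9 overlapped GFP, and all Luc arrays lay above all GFP arrays. The knockdown level was 72.2% of the control level (difference of log2 values -0.47 ± 0.11 SE, limma adjusted p = 0.0373). The call was lost without replicate 1 (limma adjusted p = 0.0803), 2 (0.0772) or 3 (0.0963) of Jak2-10, replicate 1 (0.0860), 2 (0.0967) or 3 (0.0768) of Luc, or replicate 1 (0.115) or 2 (0.0807) of GFP. The other IKBKB probe sets, 209342_s_at and 211027_s_at, had values of -0.17 and 0.11 and did not pass.

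In the 3 remaining lists limma called 0 probe sets in knockdown against control, with 4, 3 and 10 at an unadjusted p under 0.05 in the order given here, beside 16% of all probe sets. Other inhibitors and deubiquitinases (13 of 17 genes, 32 probe sets) had their lowest p at TANK (-0.24, limma adjusted p = 0.171) and TNIP1, an A20-binding protein (0.26, limma adjusted p = 0.197). Other chemokine and cytokine targets (19 of 20 genes, 28 probe sets) had theirs at IL1A, an interleukin 1 cytokine (208200_at, -0.35, limma adjusted p = 0.154) and CSF1, a growth factor of macrophages (211839_s_at, 0.17, limma adjusted p = 0.270). Both probe sets were dim, at brightness percentiles 32.8 and 22.7. The second IL1A probe set, 210118_s_at, stood at 0.15, opposite in sign. The other CSF1 probe sets ranged from -0.15 (207082_at) to 0.06 (210557_x_at). Other induced targets (21 of 22 genes, 51 probe sets) had theirs at CFLAR, an inhibitor of caspase 8 activation (211316_x_at, -0.53, limma adjusted p = 0.0506), and at CD44, an adhesion receptor (204490_s_at, 0.36, limma adjusted p = 0.0628). CFLAR 211316_x_at passed without replicate 1 (limma adjusted p = 0.00713), 2 (0.0426) or 3 (0.00975) of Jak2-9, with a value of -0.38 in the first case, and CD44 204490_s_at passed without replicate 3 of Jak2-9 (0.0233). The other CFLAR probe sets ranged from -0.25 (210564_x_at) to 0.16 (217654_at) in knockdown and did not pass. A second CD44 probe set, 217523_at, fell in Jak2-9 (-0.44 ± 0.10 SE, limma adjusted p = 0.0273), a call lost without replicate 1 of Jak2-9 (limma adjusted p = 0.0925), replicate 1 (0.0536) or 3 (0.0569) of Luc or replicate 3 of GFP (0.0572). In knockdown against control the CD44 probe sets 204490_s_at and 217523_at stood at 0.36 and -0.28, so they disagreed in sign. They were the extremes for the gene. Its other probe sets ranged from -0.07 (216056_at) to 0.25 (212014_x_at), and none passed.

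**Figure D4:**
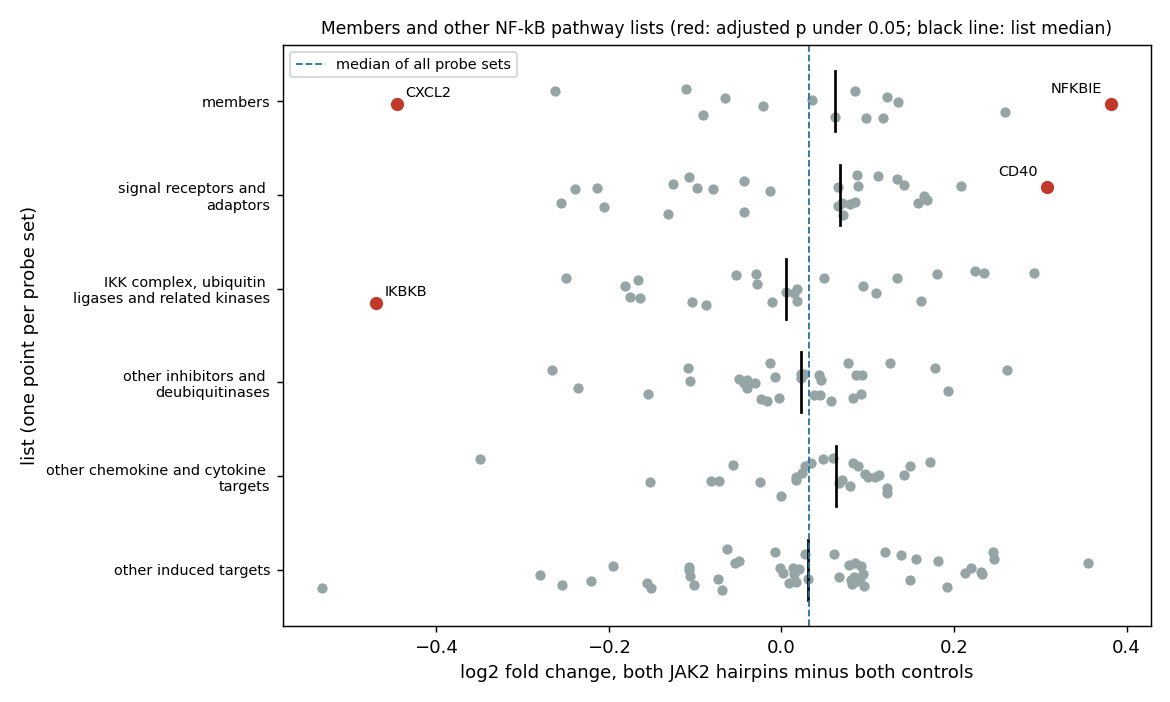
Log2 fold change of knockdown minus control (horizontal axis) for the 15 probe sets of the 10 genes and those of the 5 further pathway lists (rows), a point per probe set, red where the limma adjusted p was under 0.05, with a black line at the median of each list and a dashed line at the median of all probe sets (0.03). CXCL2 (-0.45) and NFKBIE (0.38) lie at the ends of their row, CD40 (0.31) and IKBKB (-0.47) are the only other red points, and the list medians lie between 0.01 and 0.07.

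The probe sets most like NFKBIE over the 12 arrays, by Pearson r of log2 values among 19414 others, were those of PGAM1, a glycolytic enzyme (r = 0.957), INO80B, a subunit of the INO80 chromatin remodeller (r = 0.957) and HERPUD1, a protein of the endoplasmic reticulum stress response (r = 0.955). Of these, INO80B also rose in knockdown (log2 fold change 0.32, limma adjusted p = 0.0251), while PGAM1 (0.15, limma adjusted p = 0.291) and HERPUD1 (0.22, limma adjusted p = 0.167) did not pass. For CXCL2 they were UBXN8 (r = 0.949), CYP2R1, a vitamin D hydroxylase (r = 0.910), and DNAJB4, a heat shock co-chaperone (r = 0.897). CYP2R1 (-0.35, limma adjusted p = 0.0199) and DNAJB4 (-0.29, limma adjusted p = 0.0422) also fell, and UBXN8 did not pass (-0.17, limma adjusted p = 0.223). The correlations are descriptions over 12 arrays that share 4 groups and a common normalization. These probe sets were picked for likeness to one already called in knockdown, over the same arrays. That some of them also passed in knockdown is therefore largely set by the choice, and is no separate result. No correlation was computed with an array left out.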

How the data were processed

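Per the labels' protocols, Trizol was used to purify the RNA, of which 20 ng went into the NuGEN Ovation amplification for each array. The authors deposited 1 table of linear intensity per probe set, made with RMA per the submitters' processing notes; its version and the genome build are not given in the sources used here. Of 22930 probe sets, 524 control probe sets were left out; log2 was taken with no pseudocount, where the design had allowed for either scale. Of the others, 19415 had 1 gene symbol, 125 several and 2866 none; 19290 matched RefSeq (GRCh38.p14) by Entrez identifier, and 0 symbols changed. Median intensity per array was 42.8 to 46.4, and precision is set by how few arrays there are. A model of 4 group means was fitted to all 22406 probe sets (limma 3.58.1, R 4.3.3, lmFit and eBayes, Benjamini-Hochberg over all), and tested on simulated data. Alternatives covered 25 settings of normalization, offset, filter, gene level, variance prior, weights, controls, blocks and single arrays left out. The genes and lists were chosen with earlier results of these data known. The genes named outside the 10 are JAK2, those of each pathway list that passed in any contrast, the 2 with the lowest p in knockdown where a list had none called there, and the 3 probe sets most like each called member. CXCL1, CXCL3 and the marker genes (HBG2, EPOR, ITGA2B and the 4 called in Jak2-9) were named after their values were seen. Motifs were searched in Python 3.11.15.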

Additional observations from a re-analysis of the deposited data

How the results depend on the processing

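The count of called member probe sets was 2 in knockdown against control with all arrays, and 0 to 2 with each array left out in turn. It was 0 without replicate 1 of Luc or replicate 2 of GFP. Over all probe sets the called share was 2.54% and 2.45% in those 2 fits, and 3.14% with all arrays. The count was 0 with GFP as the only control, where NFKBIE had a limma adjusted p of 0.162 and CXCL2 of 0.0746. With Luc as the only control the count was 1, where NFKBIE passed (0.0426) and CXCL2 did not (0.162). The control mean in those comparisons rested on fewer control arrays. In Jak2-9 against control the count was 2 with all arrays and 1 to 3 with arrays left out. It was 1 without replicate 1 of Jak2-9, and 3 without its replicate 2 (RELA 201783_s_at passed) or its replicate 3 (REL 206036_s_at passed). Over all probe sets the share was 2.19%, 6.46% and 9.02% in those 3 fits, and 4.27% with all arrays. NFKBIE and CXCL2 kept their direction and calls in knockdown under median centring, quantile normalization, an offset of 16 and the filter on the dimmest 30%. They also kept them with both gene-level forms, the intensity trend, array weights and the hairpin construct as a random block. That block had a consensus correlation of -0.04, so it added no spread between constructs. Keeping the calls there is no test of whether they hold beyond these 2 hairpins. Over all probe sets it called 3.45%, against 3.14% in the main fit. Whether the replicate numbers pair the samples was not settled. The 18 same-numbered pairs correlated at -0.14 to 0.19, 4 of them over 0.1. Among arrays of other groups, 7 of 12 arrays correlated best with an array of their own number. No reference value was computed for this check. With the replicate block the counts stayed at 2 in knockdown and 2 in Jak2-9 (NFKBIE 0.0284 and 0.0102, CXCL2 0.0339 and 0.0268). Those of the 5 pathway lists were 2 and 7 with the block, against 2 and 3 without it. Over all probe sets the shares were 3.16% and 4.93% with the block, against 3.14% and 4.27%. Among other pathway genes, the knockdown call of CD40 was lost with a gene-level mean, an intensity trend or GFP as the only control, and that of IKBKB with the replicate block (0.0505), the offset, both gene-level forms or GFP as the only control. In Jak2-9 the CD40 call was lost with the gene-level mean (0.123) and the intensity trend (0.0642), and that of BIRC2 under median centring (0.0536) and with only the arrays compared (0.0751). CD44 in Jak2-9 turned to 0.078 (limma adjusted p = 0.536) as a mean over its probe sets, which differ in sign. The sign of a value that missed the threshold in both settings was not read. Detection calls were not used here, so dim probe sets such as REL 206035_at may hold background only. Whether CXCL2 209774_x_at, at brightness percentile 50.2, read above background was likewise not tested.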
